A study of Mus musculus with 2 samples.

Results

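Imprinted genes are transcribed mainly from the maternal or the paternal copy, and 10 of them were followed in LM8, a line of mouse bone tumour (osteosarcoma) cells known for spreading to the lung. The 10 genes were H19, Peg3, Mest, Grb10, Dlk1, Plagl1, Ndn, Nnat, Sgce and Impact, chosen as imprinted genes whose level can differ between clones. The choice was made with earlier results of these data known, so the shares over all genes given below are description only. Every probe set assigned to a member's symbol alone was used, dim ones included. This gave 21 probe sets for 9 members, which were among 12393 genes with such a probe set on the array. H19 had 0 of its own, because its 1 probe set was assigned jointly to H19 and the microRNA gene Mir675, and no value is given for it. The data were 2 mouse expression arrays, 1 per group. The hPHD4 clone (hPHD4 cells below) was LM8 stably transfected with full-length cDNA of human PHD4, a prolyl hydroxylase of the endoplasmic reticulum membrane, in the pcDNA3.1 vector. The control clone (control cells) was LM8 transfected with the empty vector, and both were selected in medium with 0.5 mg/ml G418. Each group was 1 clone read on 1 array, so the transgene, the clone, the culture and the array cannot be told apart. There was no replicate and therefore no test.

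At an imprinted domain, DNA methylation set in the egg or the sperm marks a control region, and neighbouring genes of the domain are then read from different parental copies. A clone inherits the methylation state of the cell that founded it. Many imprinted genes act on fetal growth and fall after birth. In mice Mest, Peg3, Dlk1, Plagl1, Ndn, Nnat, Sgce and Impact are paternally expressed, H19 is maternally expressed, and Grb10 is maternally expressed in most tissues and paternally expressed in neurons. The arrays measured total transcript levels and did not separate the parental copies. A difference in level is therefore not a measure of imprinting.

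Mest had the largest difference among the members with a probe set above the floor on both arrays (defined below), 2.95-fold higher in hPHD4 cells, and its start regions are shown for that reason. The RefSeq table of promoters (build GRCm38.p6, windows from 250 bases before to 50 after a start) held 10 windows for 7 members. The first 2 sequences are windows of Mest on the plus strand, at chr6:30733256-30733555 and chr6:30737800-30738099, with CpG dinucleotides in capitals. A further Mest window began 3 bases after the second and is not shown. The Peg3 sequence, on the minus strand at chr7:6730370-6730669, is shown because it alone among the members' windows held GGGGCCCC, the consensus bound by the zinc finger protein that the member Plagl1 encodes, here in capitals. The last sequence is the mature microRNA miR-335-5p (chr6:30741314-30741336, plus strand), whose gene lies inside Mest, with its seed (bases 2 to 8) in capitals.
Mest, upstream start: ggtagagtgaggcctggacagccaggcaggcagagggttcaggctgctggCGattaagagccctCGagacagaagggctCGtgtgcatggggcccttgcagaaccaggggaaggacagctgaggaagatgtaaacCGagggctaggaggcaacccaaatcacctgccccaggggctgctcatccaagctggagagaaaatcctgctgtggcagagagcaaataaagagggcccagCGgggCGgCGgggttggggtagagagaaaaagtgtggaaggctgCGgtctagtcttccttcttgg
Mest, downstream start: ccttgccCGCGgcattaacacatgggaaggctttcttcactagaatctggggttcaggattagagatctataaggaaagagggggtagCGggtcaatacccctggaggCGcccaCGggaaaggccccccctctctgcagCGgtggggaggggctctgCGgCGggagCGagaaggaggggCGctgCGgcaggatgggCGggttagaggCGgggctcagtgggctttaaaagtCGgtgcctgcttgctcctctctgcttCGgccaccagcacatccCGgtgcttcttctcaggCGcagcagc
Peg3: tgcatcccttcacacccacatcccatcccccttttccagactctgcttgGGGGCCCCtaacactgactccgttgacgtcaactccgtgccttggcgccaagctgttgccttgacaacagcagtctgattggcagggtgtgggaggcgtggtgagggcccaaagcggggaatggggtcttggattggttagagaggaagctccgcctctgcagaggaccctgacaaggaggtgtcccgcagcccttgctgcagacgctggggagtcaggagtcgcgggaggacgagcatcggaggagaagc
mmu-miR-335-5p: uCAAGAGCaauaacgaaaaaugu

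The upstream Mest window held 8 CpG dinucleotides and the downstream window 17, against a median of 7 over all 32851 windows in the table. All 10 windows of the members had more than that median. These windows are of 7 members, and Mest and Grb10 have more than 1 each. The share of all windows with fewer CpG dinucleotides ran from 51.4% for the upstream Mest window to 98.1% for a Grb10 window. Over all windows the upper quartile was 20. Grb10 had the window with the most CpG dinucleotides among the members, 45, and another window with 9. Plagl1 had 26, Nnat 17, Peg3 13, Ndn 11 and Dlk1 9. The motif GGGGCCCC, which reads the same on both strands, was in 1.08% of all windows. The core motif of the zinc finger protein YY1, GCCATNTT, was searched on both strands, and was in 0 of the 10 windows and in 6.05% of all windows. These are counts of letters in short windows, and they do not show binding or methylation. The single Mest probe set gave 1 value per array, which does not separate the transcripts of the different starts. No probe set was assigned to Mir335, so the microRNA itself was not followed.

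The signals are log2 MAS5 signals, and a ratio is the difference of log2 signals, hPHD4 clone minus control clone. Without detection calls, a floor at the 40th percentile of each array's signals marked the dim values. It lay at 6.34 in hPHD4 cells and at 6.08 in control cells, or 81.1 and 67.8 on the linear scale. Of the 21 member probe sets, 6 lay above the floor on both arrays, 1 on the hPHD4 array alone, and 14 on neither. Thus 5 members (Mest, Impact, Peg3, Grb10 and Dlk1) had a probe set above the floor in both clones, Ndn had 1 above it in hPHD4 cells alone, and Plagl1, Nnat and Sgce had none. As a stand-in for replicate error, the disagreement between probe sets that read 1 gene was taken as an SD of their ratios, pooled over genes. It was 0.25 for the brightest, 0.34 for the middle and 0.42 for the dimmest of 3 groups of probe sets above the floor, and 1.51 under it. This SD leaves out differences between cultures, clones and arrays. Levels of different probe sets cannot be set against each other, so the members are not ordered by level.

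Osteoblast transcripts were present in both clones. Of 10 listed osteoblast markers, 7 had a probe set assigned to their symbol alone (Alpl, Col1a1, Col1a2, Dlx5, Ibsp, Sp7 and Sparc). All 7 were above the floor, and their summed linear signal was 41239 in hPHD4 cells and 48991 in control cells. Sums here and below take the brightest probe set of each gene on each array. Col1a2 alone gave 17563 and 22636 of these sums. Ibsp, encoding bone sialoprotein, was the marker of this list at least 1.5-fold higher in its mean, with ratios of 1.56 and 0.61. Sp7, Alpl and Dlx5 had ratios from 0.21 to 0.30, while both probe sets of Col1a2 and of Sparc were below 0 and those of Col1a1 went opposite ways. Neural markers are of interest beside Ndn and Nnat, which are best known from neurons. Of 5 such markers 1 was above the floor on both arrays, Syp, and the summed signal of the list was 244.7 and 266.6. Among listed markers with a probe set of their own, the corresponding counts were 1 of 5 for leukocyte, 1 of 4 for endothelial and 1 of 4 for skeletal muscle. They were 0 of 5 for epithelial and 0 of 3 for adipocyte markers. Summed signals of these 5 lists lay between 65.8 and 343 in hPHD4 cells and between 149 and 226 in control cells. Above the floor on 1 array alone were 2 leukocyte, 1 epithelial, 1 adipocyte and 1 neural marker. The epithelial marker, Krt8, had a linear signal of 173 in hPHD4 cells and 59.4 in control cells on its brightest probe set. The adipocyte marker, Pparg, had 3.33 in hPHD4 cells and 115 in control cells. Myf5, a skeletal muscle marker, was listed at 0 in hPHD4 cells. The part of these cell types in the values below was not tested. In a culture, fewer cells that transcribe a gene and less transcript per cell cannot be told apart. The transgene, a human cDNA, was not followed on these mouse arrays. P4htm, the mouse PHD4 gene, was not followed either, because 0 probe sets were assigned to it alone.

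**Figure D1:**
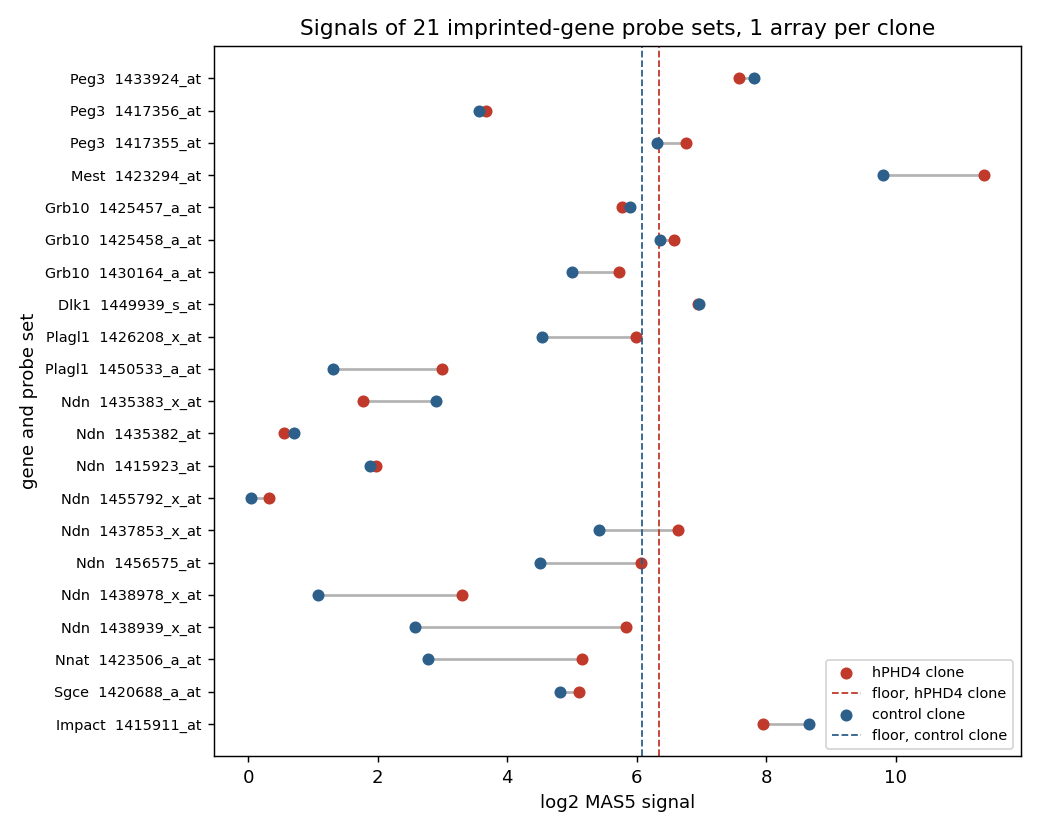
Log2 MAS5 signal (x axis) of each of the 21 member probe sets (y axis) in the hPHD4 clone and the control clone, 1 array each; dashed lines are the floors at 6.34 and 6.08. Mest, at 11.36 and 9.80, lies far to the right of both floors, while 14 probe sets, among them those of Plagl1, Nnat and Sgce, lie left of both.

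Mest, also called Peg1, encodes a protein of the alpha/beta-hydrolase fold family and is named for its transcription in embryonic mesoderm. Its only probe set, 1423294_at, had a linear signal of 2622 in hPHD4 cells and 889 in control cells. Both signals were well above the floor. The log2 ratio was 1.56 (2.95-fold higher), against an SD of 0.25 between probe sets of the same gene at this brightness. Among the 1405 probe sets within 0.5 log2 units of the same mean signal, 1.35% were higher by 2-fold or more in hPHD4 cells. Over all genes with a probe set above the floor on both arrays, 1.89% were at least 2-fold higher. The alternative filters and summaries could not change the value of this single bright probe set. Under the alternative scalings, subtraction of chromosome medians included, the Mest ratio lay between 1.47 and 1.58. It rests on 1 probe set and has no check by another.

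Impact encodes a cytosolic protein that restrains the kinase GCN2, a sensor of amino acid shortage. Its only probe set, 1415911_at, had a linear signal of 247 in hPHD4 cells and 403 in control cells. The log2 ratio of −0.71 was a 1.63-fold lower value in hPHD4 cells, against an SD of 0.34 between probe sets of the same gene at this brightness. Among the 2638 probe sets within 0.5 log2 units of its mean signal, 7.96% were at least 1.5-fold lower and 1.44% passed 2-fold. Its ratio lay between −0.80 and −0.74 under the alternative scalings, subtraction of chromosome medians included, and the filters and summaries could not change it. Impact was the only member with a probe set above the floor on both arrays that lay at least 1.5-fold lower.

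Peg3 encodes a large zinc finger protein linked to cell death and to growth of the placenta and the young. Its 3 probe sets did not agree in direction. At 1433924_at the linear signal was 192 in hPHD4 cells and 225 in control cells, a log2 ratio of −0.23. At 1417355_at it was 109 and 79.0, a ratio of 0.46, with the control signal close to the floor. The last, 1417356_at, was under the floor in both clones, at log2 signals of 3.67 and 3.57. The mean ratio of 0.11 was smaller than the SD of 0.35 over the 3 probe sets. It lay between −0.23 and 0.12 under the alternatives.

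Dlk1 encodes a transmembrane protein with EGF-like repeats that is related to Notch ligands and holds back adipocyte differentiation. Its probe set, 1449939_s_at, had linear signals of 123.0 in hPHD4 cells and 124.2 in control cells. The log2 ratio of −0.01 was within the SD of 0.42 at this brightness.

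Grb10 encodes an adaptor protein that dampens insulin and insulin-like growth factor signalling. Of its 3 probe sets, 1425458_a_at was above the floor on both arrays, with linear signals of 95.4 in hPHD4 cells and 82.2 in control cells. Its ratio of 0.21 was smaller than the SD of 0.42. The other 2 were under the floor in both clones, with ratios of −0.12 and 0.73. The mean over the 3 was 0.27 with an SD of 0.43, and it was −0.01 after quantile normalization and after loess correction. For Dlk1, Grb10 and Peg3 the 2 clones were thus not distinguishable beyond the disagreement of probe sets.

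Plagl1, Ndn, Nnat and Sgce had dim signals. Where both clones were under the floor, a ratio only describes the readings, and the SD of 1.51 between such probe sets of the same gene applies. Plagl1 encodes the zinc finger protein ZAC1, which regulates other imprinted genes and restrains growth. Its brighter probe set had a linear signal of 63.4 in hPHD4 cells and 23.1 in control cells, and its dimmer probe set 7.98 and 2.47, higher in hPHD4 cells for each. Nnat encodes neuronatin, a small membrane protein of the endoplasmic reticulum, and its probe set read a log2 signal of 5.16 in hPHD4 cells and 2.77 in control cells. Sgce encodes epsilon-sarcoglycan, a membrane glycoprotein, and its probe set read 5.11 and 4.81 on the same scale. With all signals raised to a common floor the ratios of these 3 genes were 0.

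Ndn encodes necdin, a protein of the MAGE family that restrains growth of neurons and other cells. Its 8 probe sets spread from 0.33 to 6.63 in hPHD4 cells and from 0.04 to 5.42 in control cells on the log2 scale. Of these, 6 were higher in hPHD4 cells and 2 lower, with ratios from −1.13 to 3.26 and a median of 0.75. All are assigned to Ndn alone, so they are taken as repeat readings of the same gene and not as replicates. Only 1437853_x_at reached the floor, with a linear signal of 99.4 in hPHD4 cells, against 42.8 in control cells, where the floor was 67.8. The mean ratio over the 8 probe sets was 0.92 with an SD of 1.42, so the spread of the readings exceeded the mean. It was 0.04 with signals raised to a common floor, and 0.50 over the 3 probe sets not ending in _x_at, _s_at or _a_at. The probe set that reached the floor and the probe set with the highest ratio both end in _x_at.

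Over all 21 member probe sets, 8 were higher by 2-fold or more in hPHD4 cells and 1 at least 2-fold lower. The higher probe sets were of Mest, Plagl1, Ndn and Nnat, and the lower was of Ndn. Ndn alone supplied 8 of the 21 probe sets and 7 of the 14 under the floor on both arrays. The counts in this paragraph are therefore not counts of separate genes. The share of all 20380 single-symbol probe sets at least 2-fold apart was 22.0%, made up of 14.2% higher and 7.79% lower. Most of the members' calls lay where such differences are common. Under the floor on both arrays, 6 of the 14 member probe sets were at least 2-fold higher and 1 lower, where 29.8% of all such probe sets were higher and 16.0% lower. The Ndn probe set above the floor on 1 array was also higher, in a class where 31.4% were. Above the floor on both arrays, 1 of 6 was at least 2-fold higher (Mest), against 2.21% of 11659 probe sets. Dim probe sets leaned to the hPHD4 clone in general. Of all those under the floor on both arrays 63.2% had ratios above 0, with a median of 0.37, while above the floor the share was 52.9% and the median 0.03. Among the members' 14 under the floor, 11 had ratios above 0 and 3 below, with a median of 0.51.

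**Figure D2:**
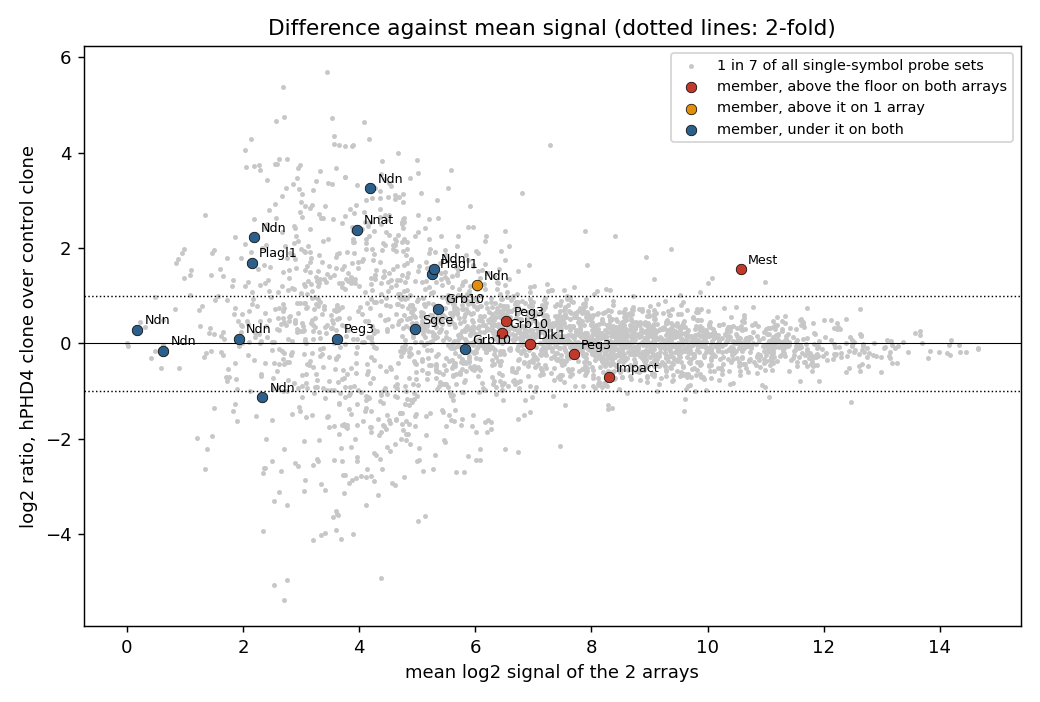
Log2 ratio, hPHD4 clone over control clone (y axis), against the mean log2 signal of the 2 arrays (x axis) for the member probe sets, coloured by whether they lie above the floor, over 1 in 7 of all single-symbol probe sets in grey. The grey cloud widens to the left, where most Ndn, Plagl1 and Nnat probe sets lie, and Mest at 1.56 lies above the narrow part of it.

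By gene, as the mean of all probe sets, 4 of the 9 members were at least 1.5-fold higher (Mest, Plagl1, Ndn and Nnat) and 1 at least 1.5-fold lower (Impact). For Plagl1 and Nnat these means rest wholly on probe sets under the floor in both clones, and for Ndn on 7 such probe sets of 8. Over all 12393 genes 24.2% were at least 1.5-fold higher and 12.8% lower, together 37.0%. Of the 5 members with a probe set above the floor on both arrays, 1 was at least 1.5-fold higher and 1 lower, where 8.94% and 5.22% of 7452 genes were. Ndn was under 1.5-fold after quantile normalization (0.50) and after loess correction (0.51). It was also under 1.5-fold without probe sets ending in _x_at, _s_at or _a_at (0.50) and with signals raised to a common floor (0.04). Ndn stayed at least 1.5-fold higher with the floor at the 20th percentile (1.39) and on its brightest probe set (1.21). The same held with the median of all ratios set to 0 (0.83) and with chromosome medians subtracted (0.68). The median ratio of the 9 members was 0.30, beside 0.10 for all genes. By position, H19, Peg3 and Ndn lie on chromosome 7, Mest and Sgce on 6, Nnat on 2, Plagl1 on 10, Grb10 on 11, Dlk1 on 12 and Impact on 18. The median ratio of all probe sets was 0.24 for chromosome 7 and between 0.03 and 0.16 for the other 6 chromosomes. Quantile normalization and loess correction each moved the median of all genes from 0.10 to −0.01 and that of the members to −0.01. The members' median was 0.21 with the median of all ratios set to 0 and 0.20 with chromosome medians subtracted. The direction of Mest and of Impact did not change under any scaling tried.

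Neighbouring genes of the members' domains were taken from a list, and not all of them are imprinted. Here and below, a listed gene counts as on the array only if it had a probe set assigned to its symbol alone. Of 53 listed genes 44 were on the array and 19 had a probe set above the floor on both arrays. By the mean of all probe sets 12 of the 44 were at least 1.5-fold higher and 5 lower, where 24.2% and 12.8% of all genes were, and this split was 8 and 8 after quantile normalization and after loess correction. Read from probe sets above the floor, 1 of the 19 was at least 1.5-fold higher and 1 lower, where 8.94% and 5.22% of genes were. Copg2, a coat protein gene that overlaps the end of Mest, had linear signals of 237 in hPHD4 cells and 247 in control cells and a log2 ratio of −0.06. Cep41, next in that domain, had −0.19. Mest, at 1.56, was thus the only gene of the 3 read above the floor in its domain with a ratio above 0.

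In the domain of Nnat, Blcap had linear signals of 157 in hPHD4 cells and 247 in control cells and was 1.57-fold lower, where 6.49% of probe sets above the floor were at least 1.5-fold lower. Nnat lies within Blcap, and its own signals were under the floor in both clones. In the domain of Sgce, 5 neighbours were above the floor, with ratios from −0.49 for Asb4 to 0.05 for Pon3, while Peg10, the paternally expressed gene beside Sgce, read 4.28 and 2.60 on the log2 scale, under the floor. In the domain of Ndn, Magel2 had a ratio of 0.49 and Ube3a of 0.15, and Snrpn on its own probe set read 4.10 and 3.28. In the domain of Impact, the 2 probe sets of Osbpl1a went opposite ways, at −0.62 and 0.41. Among the neighbours of Plagl1, Fuca2, a lysosomal fucosidase gene that was singled out after its values were seen, had 0.99 on 1 of its 2 probe sets, with the other under the floor.

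Meg3, the maternally expressed long noncoding RNA of the Dlk1 domain, had 5 probe sets that disagreed. The 1 above the floor on both arrays, 1439380_x_at, had linear signals of 176 in hPHD4 cells and 121 in control cells, a ratio of 0.54. The other 4 had ratios from −2.41 to 0.19, and the mean over all 5 was −0.60. Igf2, the paternally expressed growth factor gene beside H19, was under the floor on both of its probe sets, at log2 signals of 5.21 and 4.79 in hPHD4 cells and 3.33 and 4.64 in control cells. Tspan32, of the same region, was above the floor in control cells alone, at 132 against 77.3 on the linear scale.

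**Figure D3:**
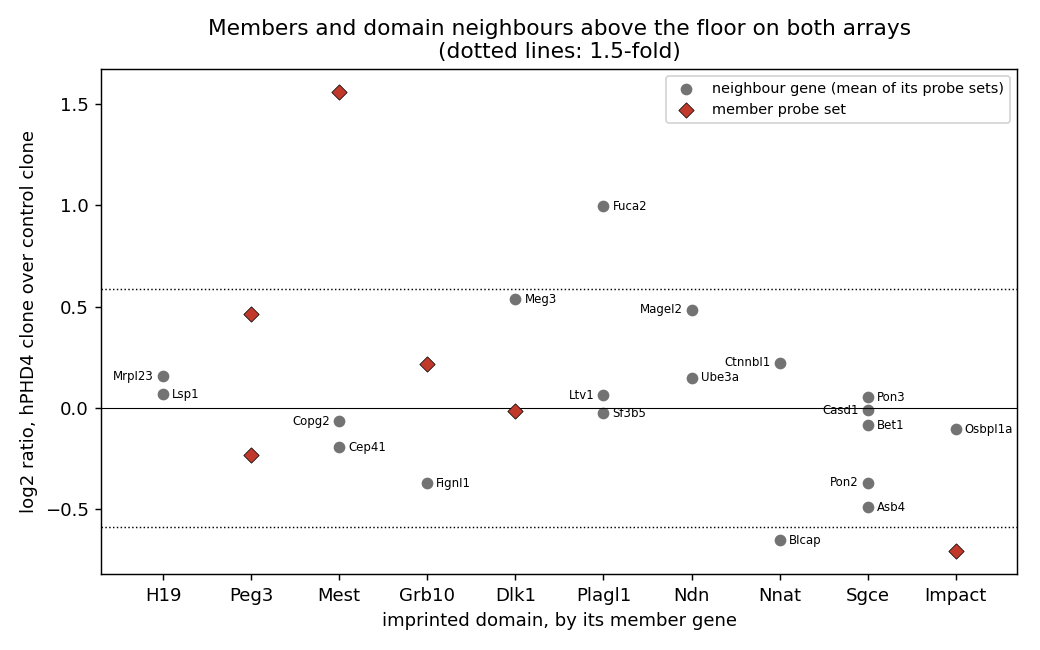
Log2 ratio, hPHD4 clone over control clone (y axis), of domain neighbours (grey points, mean of their probe sets above the floor) and of member probe sets above the floor (red diamonds), by domain (x axis); dotted lines mark 1.5-fold. Mest at 1.56 lies apart from Copg2 at −0.06 and Cep41 at −0.19, and Blcap and Impact lie under the lower line.

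Other imprinted genes were also taken from a list, which shares many genes with that of the domain neighbours. Among the shared genes are Igf2, Meg3, Blcap, Copg2, Ube3a, Asb4, Pon2 and Peg10, so counts from these lists are not separate observations. Of 57 listed, 44 were on the array and 19 had a probe set above the floor on both arrays. By the mean of all probe sets, 11 of the 44 were at least 1.5-fold higher and 7 lower, against 24.2% and 12.8% of all genes. That split was 7 and 9 after quantile normalization and after loess correction, and 8 and 8 with chromosome medians subtracted. Read above the floor, 1 of the 19 was at least 1.5-fold higher and 2 lower, where 8.94% and 5.22% of 7452 genes were. Their median ratio was 0.02 beside 0.03 for all 7452 genes. The higher gene was Tssc4, with linear signals of 729 in hPHD4 cells and 460 in control cells, a ratio of 0.67. The lower genes were Blcap and Dcn. Dcn encodes decorin, a collagen-binding proteoglycan, and had 278 and 956, a ratio of −1.78. Rasgrf1, a paternally expressed activator of Ras, was above the floor in hPHD4 cells alone on 1 of its 3 probe sets, at 84.7 against 37.2.

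A set of imprinted genes known to be transcribed together in mouse tissues, the imprinted gene network, includes 8 of the members. Of its 15 genes 14 were on the array and 8 had a probe set above the floor on both arrays. In that set Mest and Dcn lay at opposite ends, at 1.56 and −1.78. The other 6, Meg3, Grb10, Gnas, Peg3, Dlk1 and Igf2r, had ratios from −0.22 to 0.54 on such probe sets.

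Oncofetal genes, which are active in the fetus and again in tumours, formed a further list with no member in it. H19 and Dlk1 are often counted among such genes. Of 18 listed genes 15 were on the array and 4 had a probe set above the floor on both arrays. By the mean of all probe sets 3 of the 15 were at least 1.5-fold higher and 3 lower, where 24.2% and 12.8% of all genes were. The split was 1 and 4 after quantile normalization and after loess correction. Ptn, encoding the growth factor pleiotrophin, was 3.10-fold lower in hPHD4 cells, with ratios of −1.16 and −2.11 on its 2 probe sets. Tpbg and Cd24a had −0.11 and −0.03 on probe sets above the floor. Nes, encoding the intermediate filament protein nestin, had 0.42 on such probe sets but −0.75 when its dim probe set is included. Afp, the fetal serum protein alpha-fetoprotein, was above the floor in hPHD4 cells alone on 1 of its 5 probe sets, at a linear signal of 112 against 20.2, and its other 4 were under the floor with ratios of both signs.

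**Figure D4:**
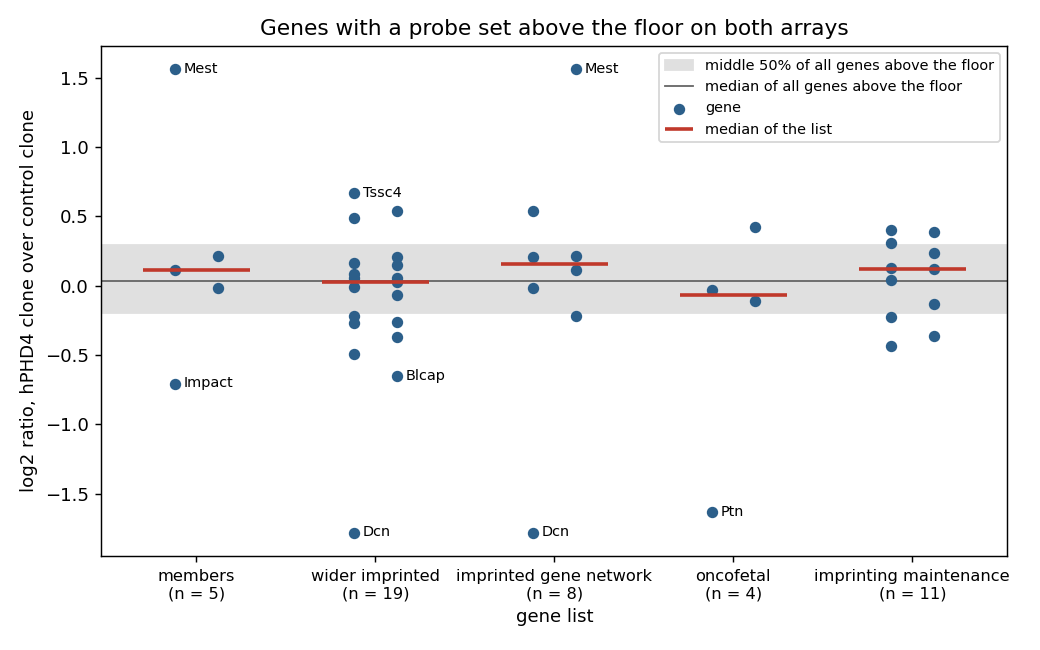
Log2 ratio, hPHD4 clone over control clone (y axis), of each gene with a probe set above the floor on both arrays, by list (x axis); the grey band is the central range (between the quartiles) of all such genes, from −0.20 to 0.29, and red bars are list medians. The medians of all 5 lists lie inside the band, and Mest, Dcn and Ptn lie farthest from it.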

How the data were processed

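The deposited values are log2 MAS5 signals per probe set, 1 column per array; MAS5 is named in the submitters' processing notes, and no version or settings for it are given in the labels. Taken as powers of 2, both columns had a mean of 500.2 after the highest and lowest 2% were trimmed, so the authors scaled each array to 1 target. No further scaling was applied. Of 22690 probe sets, 64 were controls, 20380 had 1 gene symbol in the platform annotation, 691 several and 1555 none; only those with 1 symbol were used. Chromosomes came from a RefSeq gene table (GRCm38.p6), in which 20349 of the 20380 matched by gene number. A gene's value was the mean log2 ratio over all its probe sets. Gene lists, the members and the naming rule were chosen with earlier results of these data known. The naming rule took, outside the members, genes at least 1.5-fold apart with a probe set above the floor on 1 array or more, and the partners Igf2, Meg3, Peg10, Snrpn, Blcap and Copg2; other genes named from the lists and domains were chosen after their values were seen. With 1 array per group, no test was run and the number of arrays limits the precision. Steps were run in Python 3.11.15 with pandas 2.3.3 and statsmodels 0.14.6 (loess span 0.3) and tested on simulated data. Alternatives were floors at the 20th, 40th and 60th percentiles, a common floor, the brightest probe set, removal of probe sets ending in _x_at, _s_at or _a_at, quantile, loess and median scaling, subtraction of chromosome medians and another fold threshold.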

Additional observations from a re-analysis of the deposited data

How the results depend on the processing

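Mest and Impact kept their direction under all 10 alternatives. Each has 1 probe set, which lies above every floor tried and does not end in _x_at, _s_at or _a_at. The floors, the common floor, the brightest probe set and the removal of those endings therefore could not change its ratio. Only the scalings and the subtraction of chromosome medians could, and each ratio then moved by less than the SD between probe sets. Counts of genes and probe sets moved with the treatment of dim signals. The 9 of 21 member probe sets at least 2-fold apart became 4 of 12 with the floor at the 20th percentile. They became 1 of 6 at the 40th, 1 of 2 at the 60th and 1 of 21 with signals raised to a common floor. With the brightest probe set per gene they were 4 of 9, and without probe sets ending in _x_at, _s_at or _a_at 2 of 8. The 5 of 9 member genes at least 1.5-fold apart became 4 of 8, 2 of 5 and 2 of 2 with the floor at the 20th, 40th and 60th percentile. They became 2 of 9 under the common floor, 2 of 4 under the removal of those endings and 3 of 9 at a 2-fold threshold. With the brightest probe set per gene they stayed 5 of 9. The 18 of 44 other imprinted genes became 5 of 28, 3 of 19 and 2 of 14 with the floor at the 20th, 40th and 60th percentile. They were 4 of 44 with the common floor and 10 of 44 at 2-fold. The 17 of 44 domain neighbours, some of which are among the other imprinted genes, became 2 of 28, 2 of 19 and 1 of 12 with these floors. They were 2 of 44 with the common floor and 10 of 44 at 2-fold. The 6 of 15 oncofetal genes became 6 of 10, 1 of 4 and 0 of 2 with the floor at the 20th, 40th and 60th percentile. They were 1 of 15 with the common floor, 10 of 15 with the brightest probe set per gene and 3 of 15 at 2-fold. Stricter floors leave fewer genes to count, and these counts are not set beside shares of all genes under the same settings. A 2-fold threshold can only lower a count made at 1.5-fold. A common floor sets a ratio to 0 wherever both signals lie under it. The cause of the other moves was not tested. Plagl1 and Nnat moved to 0 with the common floor, by construction. The median ratio of the members lay between −0.01 and 0.43. No paired analysis was possible because each group had 1 array. Ndn, Plagl1, Nnat and Sgce are limited by signal at or under the floor.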

Other observations

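Genes that set or keep imprints were measured as well. Of 20 listed, 15 were on the array and 11 had a probe set above the floor on both arrays. Read from those probe sets, 0 of the 11 were 1.5-fold or more above control cells and 0 were that far below, where 8.94% and 5.22% of all genes were, with ratios from −0.43 for Mbd3, of a chromatin remodelling complex, to 0.40 for Eed, a Polycomb subunit. Dnmt1, the maintenance DNA methyltransferase, had a ratio of −0.36, and Uhrf1, which brings it to replicated DNA, −0.14. Trim28, the corepressor that protects imprints, had 0.39, and Ctcf, which binds the control region between Igf2 and H19, 0.04.

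With dim probe sets included, 4 of the 15 were at least 1.5-fold higher, where 24.2% of all genes were. These were Dnmt3a, Dnmt3b, Dppa3 and Tet1, of which Tet1 was under the floor on every probe set. Dnmt3b, a DNA methyltransferase, had 2 probe sets that disagreed, with linear signals of 232 in hPHD4 cells and 212 in control cells on the first and of 146 and 37.4 on the other. Dnmt3a had ratios of 0.60 and 0.01 on its 2 probe sets above the floor and from −0.16 to 1.93 on the other 3. Dppa3, which protects imprints in the early embryo, was above the floor in hPHD4 cells alone, at 106.8 against 51.2.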
